A study of Mus musculus with 7 samples.

Results

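The transcripts of the AP-1 and BATF transcription factors were followed in cultured ILC2s, the innate lymphoid cells that carry no rearranged antigen receptor and secrete cytokines of type 2 immunity. The members were 10 genes chosen by name: Fos, Fosb, Fosl1, Fosl2, Jun, Junb, Jund, Batf, Batf3 and Atf3. They were found through the accession that each probe carries in the scanner files, which gave 11 probes of the 39429 on the array, 2 of them for Fosl2. All 10 members passed the filter on low signal and stood among 25346 genes tested.

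The knockout cells (KO, 3 arrays, each with RNA from 6 pooled mice) came from Gfi1 GFP/GFP mice, in which a GFP cassette placed in the Gfi1 locus removes the function of this transcriptional repressor and reports its promoter. The wild-type cells (WT, 4 arrays, each with RNA from 3 pooled mice) came from Gfi1+/+ mice. Both kinds of mice received IL-25 on each of 4 days, and cells sorted on day 5 from mesenteric lymph nodes as lineage-negative and positive for Sca-1, ICOS, CD127 and c-Kit were then grown for 6 days with IL-2 (50 ng/ml), IL-7 (10 ng/ml) and IL-25 (50 ng/ml). All cells were thus exposed to these cytokines, the knock-in is carried by all cells of the knockout mice and not by ILC2s alone, and neither age nor strain is given in the labels. Each array held 1 sample labelled with Cy5 against a commercial universal mouse reference RNA labelled with Cy3. A level below is the log2 ratio of sample over reference, and a difference is KO minus WT on that scale. The ratio of one gene cannot be set against that of another as abundance, since the reference holds each transcript at its own level. RNA was taken from whole cultures, so fewer cells of a type and less RNA per cell cannot be told apart.

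AP-1 is a family of dimers that bind DNA through a basic region and pair through a leucine zipper. Jun proteins (Jun, Junb, Jund) can pair with each other, whereas Fos proteins (Fos, Fosb, Fosl1, Fosl2) need a Jun partner. BATF and BATF3 lack the activation domain of Fos proteins, pair with Jun proteins and bind composite sites together with IRF4 or IRF8. ATF3 is a stress-induced member that can repress. Several of these genes are immediate early genes, whose transcription starts within minutes of a receptor signal without new protein synthesis.

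Promoter sequences of RefSeq (build GRCm38.p6) were matched by symbol for 9 of the 10 members; Fosl1 had no entry. The 5 shown are those of the 3 members that were called between the genotypes (Batf, Fosl2 and Jun) and of the 2 others that hold TGACGT as Batf does (Fos and Atf3). Each is 300 bases long and runs 5′ to 3′ on the strand of its gene, with the transcription start near its end. Capitals mark TGACGT (the core of the cyclic AMP response element, written ACGTCA on the reverse strand) and TGACATC, an AP-1 site variant known from Jun promoters. The promoters lie at chr12:85686470-85686769 (plus strand, Batf), chr5:32136222-32136521 (plus strand, Fosl2), chr4:95052173-95052472 (minus strand, Jun), chr12:85473640-85473939 (plus strand, Fos) and chr1:191183284-191183583 (minus strand, Atf3).
Batf: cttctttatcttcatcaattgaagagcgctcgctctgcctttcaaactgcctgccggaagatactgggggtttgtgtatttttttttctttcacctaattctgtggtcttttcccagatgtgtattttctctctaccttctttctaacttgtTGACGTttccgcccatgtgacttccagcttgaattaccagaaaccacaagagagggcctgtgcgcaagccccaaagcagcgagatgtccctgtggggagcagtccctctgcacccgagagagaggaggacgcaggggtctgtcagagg
Fosl2: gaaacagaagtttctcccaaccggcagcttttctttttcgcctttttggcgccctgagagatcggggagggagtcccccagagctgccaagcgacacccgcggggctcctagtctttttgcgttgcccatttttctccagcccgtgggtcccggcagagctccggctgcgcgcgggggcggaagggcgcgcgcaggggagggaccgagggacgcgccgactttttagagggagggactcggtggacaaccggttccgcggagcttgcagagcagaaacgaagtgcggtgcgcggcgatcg
Jun: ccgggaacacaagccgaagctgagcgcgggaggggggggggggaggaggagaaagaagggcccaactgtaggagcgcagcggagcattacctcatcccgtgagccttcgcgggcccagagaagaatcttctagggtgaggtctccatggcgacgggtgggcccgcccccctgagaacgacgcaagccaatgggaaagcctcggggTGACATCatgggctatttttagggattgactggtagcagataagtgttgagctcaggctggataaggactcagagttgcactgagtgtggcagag
Fos: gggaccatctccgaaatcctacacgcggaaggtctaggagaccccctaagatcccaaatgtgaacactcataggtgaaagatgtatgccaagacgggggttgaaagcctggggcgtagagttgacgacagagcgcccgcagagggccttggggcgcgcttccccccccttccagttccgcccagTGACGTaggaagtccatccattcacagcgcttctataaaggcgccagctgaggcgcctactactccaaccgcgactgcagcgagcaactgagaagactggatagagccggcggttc
Atf3: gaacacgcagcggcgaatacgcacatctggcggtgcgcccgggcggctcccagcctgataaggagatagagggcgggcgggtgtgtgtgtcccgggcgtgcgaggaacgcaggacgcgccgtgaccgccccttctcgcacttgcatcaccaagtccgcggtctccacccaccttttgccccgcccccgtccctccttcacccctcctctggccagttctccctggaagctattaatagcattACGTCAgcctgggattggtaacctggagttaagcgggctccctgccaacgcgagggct

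TGACGT began 98 bases before the start in Batf and 66 bases before it in Fos, both on the gene's strand, and on the reverse strand 8 bases before the start in Atf3. It was searched on both strands and is held by 7.51% of 32851 promoters of the same length. TGACATC was found in the Jun promoter, 45 bases before the start, and in 5.82% of all promoters. The canonical AP-1 site TGANTCA (N being any base) was in none of the 9 member promoters and in 7.81% of all promoters. AAATCAC, the core bound by GFI1, was found in 1 member promoter, that of Jund, 59 bases before the start, and in 3.2% of all promoters. The Fosl2 promoter held neither of the capitalised motifs and had a GC content of 64.7%, against 49.7% in Batf and a median of 52.7% over all promoters. GC boxes (GGGCGG) stood in 7 of the 9 promoters and in 35.7% of all. These matches describe letters in the windows and say nothing of binding.

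The share of probes whose sample signal exceeded background clearly was 67.4% to 80.9% per array. Log ratios over genes correlated at 0.969 to 0.980 among KO arrays, 0.979 to 0.989 among WT arrays and 0.942 to 0.969 between the groups. Slide 1 held KO array 1 and WT array 4, slide 2 held KO arrays 2 and 3 and WT array 1, and slide 3 held WT arrays 2 and 3 only. Gfi1 itself read 4.29, 4.25 and 4.29 in KO arrays, against 1.90, 1.87, 2.36 and 1.96 in WT arrays. The promoter stays active in this allele and it is not known here which side of the cassette the probe reads, so it checks no label. ILC2 markers had a median log ratio of 4.46 to 4.60 in KO arrays and 4.69 to 4.94 in WT arrays (14 of 14 tested). Of these markers 1 was called higher and 3 lower in KO, where 3.28% of all tested genes were higher and 4.24% lower. The sorted receptors Icos, Il7r and Kit averaged 9.06, 6.31 and 6.85 in KO and 9.18, 6.54 and 6.23 in WT, and none of them was called. Ly6a, which encodes the sorted antigen Sca-1, averaged 4.42 in KO and 5.14 in WT and fell 1.65-fold (adjusted p = 0.00245; 0.0405 with slide as a block). T cell markers had medians of 0.28 to 0.39 in KO and 0.18 to 0.37 in WT (11 of 12 tested, 1 higher, Lck, and none called when KO array 2, KO array 3 or WT array 1, 2 or 3 was left out). Of the markers that define T cells, Cd3d averaged 3.50 in KO and 2.42 in WT (adjusted p = 0.222), while Cd3e differed by 0.39 (0.279), Cd3g by -0.07 (0.948) and Cd4 by -0.14 (0.408). In all, 9 of the 11 T cell markers tested had a positive difference, with a median of 0.20 beside -0.01 over all tested genes. At an unadjusted limma p under 0.05, 4 were higher and none lower, where 9.01% of all tested genes were higher. Without KO array 3 and WT array 4, 2 T cell markers were called higher. All 6 B cell markers were measured and none was called in limma (none at an unadjusted p under 0.05).

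Batf, Fosl2 and Jun were lower in knockout ILC2s, and none of the 10 members was called higher. Batf fell 1.39-fold, Fosl2 fell 1.64-fold and Jun fell 1.65-fold. In limma, at a Benjamini-Hochberg adjusted p under 0.05 among all genes tested, 4.24% of genes were called lower and 3.28% were called higher, 7.52% in all. Against 3 of 10 members called lower, no test was made of the list, whose median difference was -0.21 beside -0.01 over all tested genes. At an unadjusted p under 0.05, 4 members were lower and 1 was higher, where 10.5% of all tested genes were lower and 9.01% higher. The 3 called members were also the only ones whose KO and WT arrays did not overlap, a pattern seen in 18.3% of all tested genes (10.2% with KO lower). Without KO array 3 and WT array 4, which stand apart for Jund, 2 members (Batf and Fosl2) were called lower and Jun was not (adjusted p = 0.121), where 4.51% of 24453 genes were called, 2.64% lower and 1.87% higher. With slide as a fixed block none of the 10 was called in limma, 3 being lower at an unadjusted p under 0.05, where 6.16% of all tested genes were lower and 5.16% higher. That fit compares the groups within slides 1 and 2 only, since slide 3 held WT arrays only. With slide as a random block (correlation -0.135) limma called Batf, Fosl2 and Jun lower, among 2122 of 25346 genes called, 1181 lower and 941 higher. Elsewhere, slide as a block means the fixed block. The median of the ILC2 markers was lower on each KO array than on any WT array, and its part in these differences was not tested.

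**Figure D1:**
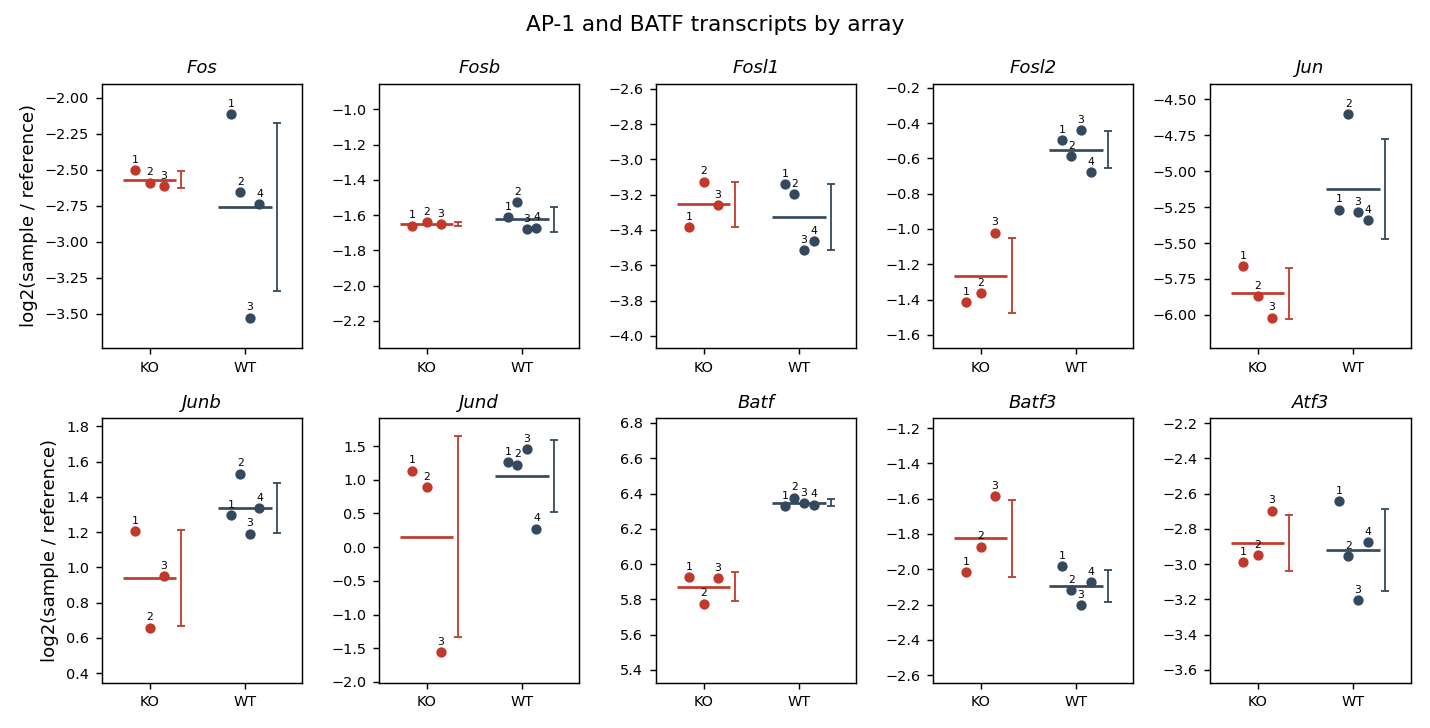
Log2 ratio of sample over reference for each of the 10 members, with 1 point per array (numbered by replicate), KO left and WT right; horizontal lines are group means, vertical bars are ± 1 SD, and each panel has its own vertical range. KO points lie wholly below WT points for Batf, Fosl2 and Jun, and KO array 3 stands far below the other arrays for Jund.

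Batf, the partner of Jun proteins whose loss in mice removes several helper T cell programmes, read 5.92, 5.78 and 5.92 in KO arrays, against 6.33, 6.38, 6.35 and 6.34 in WT arrays. Every KO array lay below every WT array, and the WT arrays were nearly equal. The means were 5.87 ± 0.08 in KO (SD, n = 3) and 6.35 ± 0.02 in WT (SD, n = 4), a difference of -0.47 ± 0.08 (SE), with a 95% interval of -0.64 to -0.30 and a limma adjusted p of 0.00534. Batf RNA in the sample was 58.6 times the reference in KO and 81.4 times the reference in WT. That placed the gene 21st of 25346 by its WT ratio, with a higher ratio in 0.114% of genes in KO and 0.0789% in WT. The transcript was thus far above the reference in both genotypes.

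The Batf probe gave 9 or 10 spots on each array, and the SD among spots of an array, which measures technical noise only, was 0.03 to 0.06 on the log2 scale. After loess and scaling of average intensities between arrays, its reference signal was 0.14 lower in KO. The difference in the sample channel alone was then -0.62, or 1.54-fold lower. Processed signal of the scanner software in the reference was 745, 569 and 708 in KO, against 729, 530, 642 and 859 in WT. In the sample it was 57834, 42777 and 57346 in KO, against 73468, 59619, 66717 and 86139 in WT. Every difference within a channel given below is after the same scaling. Within slide 1 the Batf difference was -0.41 and within slide 2 it was -0.48, each without a test. With slide as a fixed block it was -0.45 and missed the threshold (adjusted p = 0.100), in a fit that called 1.89% of all genes, 0.967% lower and 0.919% higher. The call was also lost with a trended and robust variance model (adjusted p = 0.0725) and with the replicate number as a block (0.0520).

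Batf3, the BATF-like factor that conventional type 1 dendritic cells need, read -2.02, -1.87 and -1.59 in KO arrays, against -1.98, -2.12, -2.20 and -2.07 in WT arrays. KO array 1 lay within the WT values and KO arrays 2 and 3 lay above all of them. The difference was 0.27, with an interval of 0.02 to 0.52 and an adjusted p of 0.215, so Batf3 was not called. Without KO array 3 it was 0.15 (adjusted p = 0.511), and it was 0.06 within slide 1 and 0.26 within slide 2. Its sign was opposite to that of Batf. A test of the difference between these paralogs was not made.

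Among Fos proteins, Fosl2 (FRA-2) read -1.41, -1.36 and -1.02 in KO arrays, against -0.50, -0.59, -0.44 and -0.68 in WT arrays. The groups did not overlap, and KO array 3 was the KO array nearest to WT. Means were -1.27 ± 0.21 in KO (SD, n = 3) and -0.55 ± 0.10 in WT (SD, n = 4), a difference of -0.72 ± 0.11 (SE; interval -0.97 to -0.46; limma adjusted p = 0.00491). The reference exceeded the sample 2.40-fold in KO and 1.46-fold in WT.

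Fosl2 held its call in 23 of 24 alternative fits, including all 7 that left out 1 array. These 24 are not all distinct, since some repeat another fit or the main fit. With slide as a fixed block the difference was -0.71 (adjusted p = 0.0538), and it was -0.74 within slide 1 and -0.69 within slide 2. A second Fosl2 probe was much dimmer and well above background on 3 of 3 KO and 3 of 4 WT arrays. It read -0.82, -0.63 and -0.84 in KO arrays, against -0.73, -0.73, -0.42 and -0.68 in WT arrays, and these groups overlapped. Its difference of -0.13 (interval -0.36 to 0.11; adjusted p = 0.586 over all tested probes) was not called. In the sample channel alone the second probe differed by 0.04, against -0.59 for the first, beside reference signals 0.16 and 0.12 higher in KO. The mean of both probes gave -0.42.

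Fos, the immediate early partner of Jun, read -2.50, -2.59 and -2.61 in KO arrays, against -2.11, -2.65, -3.53 and -2.74 in WT arrays. The KO arrays lay close together and inside the WT range, whose highest array was WT 1 and whose lowest was WT 3. The SD was 0.06 in KO and 0.58 in WT, and only 0.335% of genes varied more among WT arrays. Within an array the 8 to 10 spots of the Fos probe had an SD of 0.04 to 0.06. The difference was 0.19, with an interval of -0.40 to 0.78 (adjusted p = 0.778).

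Fosb and Fosl1 were not called either. Fosb varied little, from -1.66 to -1.64 over KO arrays and from -1.68 to -1.53 over WT arrays, with a difference of -0.03 (interval -0.20 to 0.14; adjusted p = 0.902). Fosl1 (FRA-1) ran from -3.38 to -3.13 in KO and from -3.51 to -3.14 in WT, a difference of 0.07 (interval -0.19 to 0.33; adjusted p = 0.809). Both intervals exclude a difference as large as the one estimated for Fosl2. The reference exceeded the sample 3.14-fold in KO and 3.08-fold in WT for Fosb, and 9.55-fold in KO and 10.0-fold in WT for Fosl1.

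Jun, the founding AP-1 protein, read -5.66, -5.87 and -6.02 in KO arrays, against -5.27, -4.60, -5.28 and -5.34 in WT arrays. No KO array reached the lowest WT array, and WT array 2 stood above the other WT arrays. Means were -5.85 ± 0.18 in KO (SD, n = 3) and -5.12 ± 0.35 in WT (SD, n = 4), a difference of -0.73 ± 0.18 (SE; interval -1.13 to -0.33; limma adjusted p = 0.0389). The reference exceeded the sample 57.7-fold in KO and 34.9-fold in WT, and 99.8% of genes in KO and 99.6% in WT had a higher ratio.

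The Jun call was the least stable of the 3. It held in 11 of 24 alternative fits and in 2 of the 7 that left out 1 array, those without KO array 1 and without WT array 2, with adjusted p up to 0.108 among the 7. With slide as a fixed block the difference was -0.52 (adjusted p = 0.398), and it was -0.32 within slide 1 and -0.67 within slide 2. Its processed signal in the sample channel was 294, 187 and 180 in KO arrays, against 262, 357, 314 and 352 in WT arrays, so that KO array 1 overlapped WT before scaling. All 24 alternatives kept the negative sign of Jun, as they did for Batf and Fosl2. They also kept the negative signs of Junb and Jund and the positive sign of Batf3, which were not called.

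Junb, which in helper T cells pairs with BATF and opposes Jun on some promoters, read 1.21, 0.66 and 0.95 in KO arrays, against 1.30, 1.53, 1.19 and 1.34 in WT arrays. Only KO array 1 exceeded a WT array, and that was WT array 3. The means were 0.94 ± 0.27 in KO (SD, n = 3) and 1.34 ± 0.14 in WT (SD, n = 4), and the difference of -0.40 (interval -0.70 to -0.10) had an adjusted p of 0.123. Without KO array 1 the Junb difference was -0.53 and was called (adjusted p = 0.0385). Without KO array 2 it was -0.26 (adjusted p = 0.315), and it was -0.13 within slide 1 and -0.49 within slide 2.

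Jund, the most constantly expressed Jun gene in many cell types, read 1.13, 0.89 and -1.56 in KO arrays, against 1.26, 1.23, 1.46 and 0.27 in WT arrays. KO array 3 and, less so, WT array 4 lay below the rest, while KO arrays 1 and 2 lay within the WT range. The difference of -0.90 had an interval of -2.20 to 0.41 and an adjusted p of 0.468. Without KO array 3 it was -0.04, and without both of those arrays it was -0.30 (adjusted p = 0.280). It was 0.86 within slide 1 and -1.60 within slide 2.

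The low Jund value of KO array 3 lay in the sample channel. Processed signal was 84919, 61164 and 14775 in KO samples, against 84072, 73884, 101258 and 54169 in WT samples, where KO array 3 was the lowest. The reference signal of the same spots ran from 33277 to 42624 on KO arrays and from 31707 to 45287 on WT arrays, with KO array 3 at the top of the KO range. KO array 3 lay more than 1 log2 unit below all other arrays in 38 of 25258 genes with 7 values (0.150%), against at most 4 genes for any other array.

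**Figure D2:**
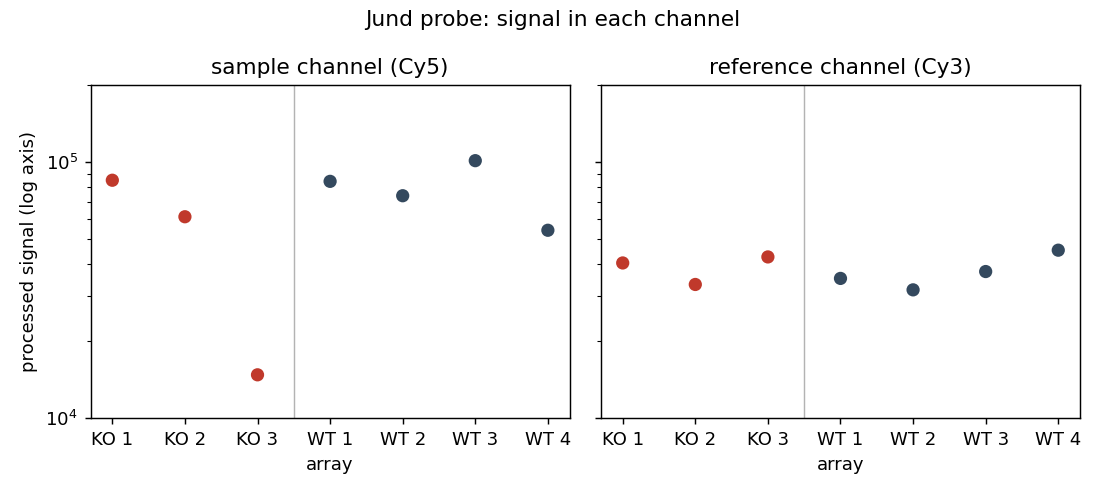
Processed signal of the Jund probe on each array (log axis), the sample channel on the left panel and the reference channel on the right, KO arrays before WT arrays. The sample signal of KO array 3, at 14775, is below all others, while the reference signals lie between 31707 and 45287.

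Atf3 read -2.99, -2.95 and -2.70 in KO arrays, against -2.64, -2.95, -3.20 and -2.88 in WT arrays. The groups overlapped throughout, and the difference was 0.04 (interval -0.26 to 0.34; adjusted p = 0.918). The reference exceeded the sample 7.35-fold in KO and 7.56-fold in WT.

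**Figure D3:**
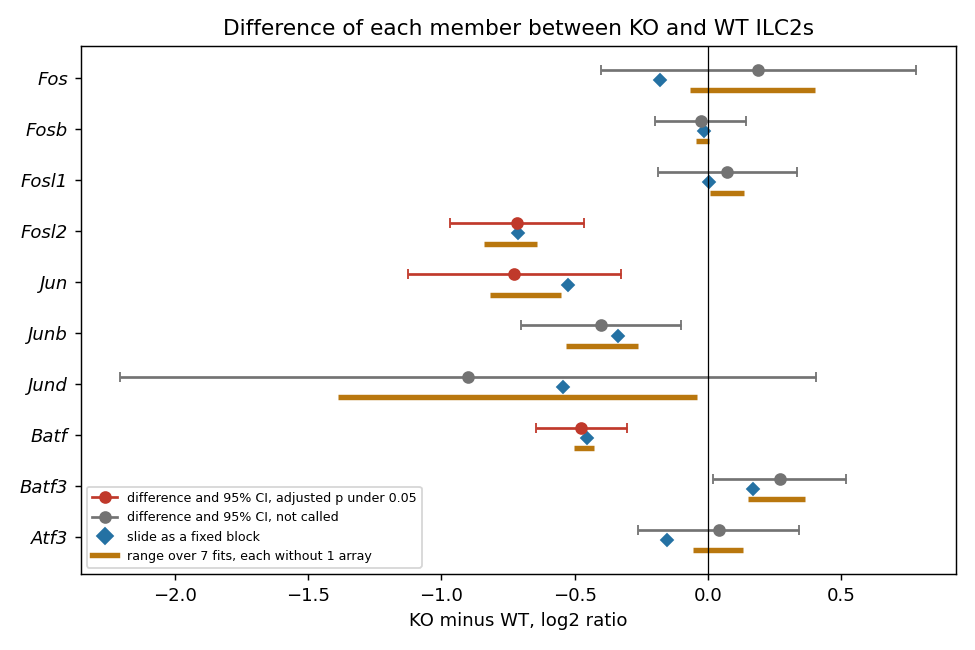
KO minus WT difference of each member in log2 units with its 95% interval (red, adjusted p under 0.05; grey, not called), the estimate with slide as a fixed block (diamonds) and the range of 7 fits that each left out 1 array (thick bars). The estimates of Batf, Fosl2, Jun, Junb and Jund stay below 0 in every fit shown, and those of Batf3 and Fosl1 stay above 0. Jund has the widest interval, from -2.20 to 0.41.

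Relative to the reference, 3 members (Batf, Junb and Jund) averaged above it in both genotypes and the other 7 averaged below it. For Jund the KO mean was 0.15 ± 1.49 (SD, n = 3), with KO array 3 below the reference at -1.56. A dye effect cannot be removed from these ratios, since no array had the dyes swapped. An effect equal on all arrays would drop out of the differences, and whether it was equal was not tested. Of the 3 members that fell, Batf averaged above the reference and Fosl2 and Jun averaged below it.

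The genes whose log ratios followed each called member most closely over the 7 arrays were named by Pearson r among 16638 genes with a symbol. Ehf (r = 0.992), Nrros (0.989) and Tspan13 (0.988) were nearest to Batf. Cdkn2d (0.991), Zkscan6 (0.981) and M6pr (0.980) were nearest to Fosl2, and Unc79 (0.984), Otub2 (0.981) and B430306N03Rik (0.981) to Jun. The 7 arrays fall into 2 groups that differ for these members, and the values are given as a description.

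On chromosome 12, RefSeq places Jdp2 as the only protein-coding gene among 4 genes between Fos and Batf. Jdp2 encodes a small AP-1 protein that pairs with Jun and represses AP-1 sites. It read -0.52, -0.54 and -0.83 in KO arrays, against 0.81, 0.68, 0.56 and 0.81 in WT arrays, without overlap. Jdp2 fell 2.53-fold (difference -1.34; limma adjusted p = 0.000151), and it was also called with slide as a block (0.00406). Of these 3 genes on chromosome 12, Batf and Jdp2 were called lower and Fos was not called.

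Of 26 other factors with a basic leucine zipper tested, 4 fell and 1 rose, where 4.24% of all tested genes fell and 3.28% rose. The median difference of these factors was -0.09. The 5 calls became 3 without KO array 2, without WT array 1, without WT array 2, or without KO array 3 and WT array 4 together. Maff, a small Maf protein without an activation domain, fell 2.15-fold (adjusted p = 0.00296). Atf4, the main factor of the amino acid response, fell 1.87-fold (adjusted p = 0.0211) while its reference signal was 0.63 higher in KO, and its second probe differed by -0.57. Atf5, a relative of Atf4, fell 1.62-fold (adjusted p = 0.0219), and Maf, an activator of Il4 and Il10, chosen after its values were seen, rose by 0.69. With slide as a block only Jdp2 and Maff were called, in a fit that called 1.89% of all tested genes.

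Partners that bind composite sites beside AP-1 or BATF moved in opposite directions. Irf4, the usual partner of BATF in activated T cells, read 1.81, 2.29 and 2.42 in KO arrays, against -0.15, -0.34, -0.50 and -1.06 in WT arrays. Irf4 rose 6.43-fold (difference 2.69; limma adjusted p = 0.000151; 0.000642 with slide as a block). Its relative Irf8 read -1.09, -0.66 and -1.62 in KO arrays, against 0.30, 0.55, -0.41 and 0.44 in WT arrays. Irf8 fell 2.54-fold (adjusted p = 0.0142) and had an adjusted p of 0.115 once slide was a block. Nfatc2, a calcium-regulated factor that binds with Fos and Jun, rose 1.81-fold (adjusted p = 0.00483), but its second probe differed by 0.17 and the call was lost with slide as a block (0.0824). The other 3 of the 6 partners were not called, and 7.52% of all tested genes were called.

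Upstream of AP-1, 3 of 20 MAP kinases and related factors fell and 1 rose, where 4.24% of all tested genes fell and 3.28% rose. The median difference of the list was -0.06. Without KO array 1, and likewise without KO array 2, 1 fell and 1 rose. Map2k6, a kinase that activates p38, fell 2.61-fold (adjusted p = 0.00270) in a fit that lacked a value for KO array 3. Mapk3 (ERK1) fell 1.45-fold (adjusted p = 0.00684), and its second probe differed by -0.67. Mapk8 (JNK1), which phosphorylates Jun, fell 1.59-fold (adjusted p = 0.0477), with 2 other probes at 0.01 and -0.01. The Mapk8 probe used was well above background on 2 of 3 KO arrays. Map4k1, a kinase of antigen receptor signalling, rose 1.61-fold (adjusted p = 0.00253). Of these, only Map2k6 was called with slide as a block, in a fit that called 1.89% of all tested genes.

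Among 19 other immediate early genes tested, 3 rose and 2 fell, where 3.28% of all tested genes rose and 4.24% fell. The median difference of the list was 0.02. Without KO array 2, without WT array 4, and without KO array 3 and WT array 4 together, 1 rose and 2 fell. Ier3, a stress response gene, fell 2.42-fold (adjusted p = 0.000540) and was the only one called with slide as a block. Nr4a1, a nuclear receptor induced by antigen receptor signals, fell 1.85-fold (adjusted p = 0.00555). Dusp2, a phosphatase of MAP kinases, rose 2.26-fold (adjusted p = 0.00606) and Rgs1, a regulator of G protein signals, rose 1.29-fold (adjusted p = 0.0174). Zfp36, which destabilises cytokine mRNAs, rose by 0.65 and was chosen after its values were seen.

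Genes long known as AP-1 targets did not share a direction, with 2 higher and 1 lower of 18 tested and a median of 0.03. The shares called over all tested genes were 3.28% higher and 4.24% lower. Mt2, a metallothionein, fell 3.19-fold (adjusted p = 0.00908), whereas Vim rose 1.48-fold (adjusted p = 0.0136) beside a reference signal 0.37 lower in KO. Gja1, the connexin 43 gene, rose 1.44-fold (adjusted p = 0.0370). None of these 3 was called with slide as a block, and 1 gene of the list, a lower one, was called without KO array 3 and WT array 4. Of 9 cytokine genes driven by NFAT with AP-1, Tnf rose 3.83-fold (adjusted p = 0.00476; 0.0422 with slide as a block) and Il3 rose 1.40-fold (adjusted p = 0.0249; 0.281 with slide as a block), and none of the 9 was called lower (3 were lower at an unadjusted p under 0.05). Only 1 of the 9 was called when KO array 3 or WT array 1, 2 or 3 was left out. In the main fit 3.28% of all tested genes were called higher, and 10.5% were lower at an unadjusted p under 0.05.

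Of 13 tested genes listed as needing BATF in T helper cells of mice, 6 rose and 1 fell in the knockout, where Batf itself was lower. By comparison, 3.28% of all tested genes were called higher and 4.24% lower. Whether each of the 13 needs BATF, in T helper cells or in ILC2s, was not tested here. The median difference of the 13 was 0.64, beside -0.01 over all tested genes. This list, like the others, was chosen with earlier results of these data known. Il17a read 6.89, 5.46 and 6.42 in KO arrays, against 0.73, 0.38, 0.80 and 0.65 in WT arrays. The rise of Il17a was 49.2-fold (adjusted p = 1.4e-05) and that of Il17f was 21.9-fold (adjusted p = 2.08e-07), with reference signals 0.44 and 1.13 higher in KO. Ctla4, an inhibitory receptor, rose 3.29-fold (adjusted p = 0.000415).

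Il10 and Maf also rose, and Gata3, the regulator of type 2 lymphocytes, fell 1.90-fold, these 3 chosen after their values were seen. With slide as a block 4 of the 13 rose (Il17a, Il17f, Ctla4 and Il10), where 0.919% of all tested genes were called higher. Without KO array 3 and WT array 4, the arrays apart for Jund, 5 rose and 1 fell, where 1.87% of all tested genes rose and 2.64% fell. Summed sample signal of the 11 T cell markers tested was 23376 to 38282 in KO arrays and 16426 to 36900 in WT arrays, ranges that overlap, and the part of such cells in these rises was not tested.

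**Figure D4:**
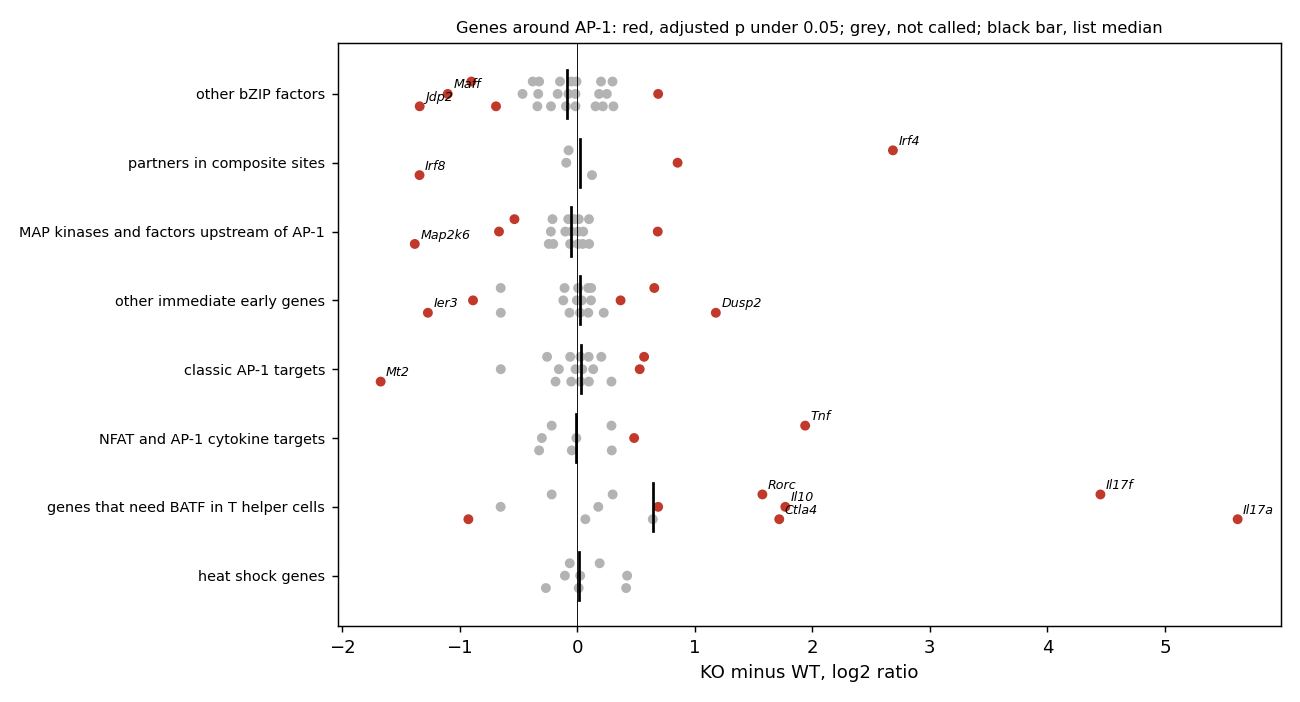
KO minus WT difference in log2 units for each tested gene of 8 lists around AP-1 (red, adjusted p under 0.05; grey, not called; black bars, list medians), with the genes of largest difference labelled. Genes listed as needing BATF in T helper cells have a median of 0.64, while the medians of the other 7 lists lie between -0.09 and 0.03. The lists were chosen with earlier results of these data known.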

How the data were processed

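RNA of 7 ILC2 samples (3 KO, 4 WT) was hybridised to two-colour Agilent mouse arrays. The deposited scanner files hold linear intensity values per spot and the log10 of Cy5 over Cy3, written by Agilent Feature Extraction 11.0.1.1 per the file headers, whereas the submitters' processing notes name 10.7.3.1. The deposited series table holds log2 ratios that equal the scanner ratio to within 0.001, with column medians of 0.163 to 0.254. Median foreground and local background intensity were corrected with normexp (offset 50) and normalized by loess within arrays (control spots at weight 0) in limma 3.58.1 under R 4.3.3. Over the 7 arrays 2597 spots flagged as outliers or with uneven background were left out, and spots of a probe were averaged.

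Accessions in the files gave probes their gene names by way of a RefSeq table (GRCm38.p6): 26581 had 1 gene and 12848 had none and were tested by accession. A gene was tested where 3 or more arrays had a sample signal well above background and neither group had fewer than 2 values, and its brightest probe stood for it. Groups were compared with lmFit and eBayes, adjusted over 25346 genes. Signal given as processed is that of Feature Extraction per the file headers. A difference in the sample or reference channel alone is in log2 units, after loess and scaling of average intensities between arrays. The code was tested on simulated data. P-values measure the spread between pools of mice.

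The members and gene lists were chosen with earlier results of these data known. Genes named beside the members are up to 4 called members of each list with the smallest p, and the 3 genes most like each called member. A gene that this rule names is not reported here. Alternatives covered background correction, normalization, channel, flags, filters, probe choice, variance model, slide, replicate number and arrays left out. Figures used matplotlib 3.10.9.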

Additional observations from a re-analysis of the deposited data

Results flagged for a closer look

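Of the 11 member probes examined among the 4 WT arrays, 2 had 1 array far from the others, measured as the gap to the nearest array over the whole WT range; chance gives such a flag in about 1 of 20 groups. For Jun this share was 0.901, with WT array 2 at -4.60 and the other WT arrays between -5.34 and -5.27. Without that array the Jun difference was -0.55 and stayed called (limma adjusted p = 0.0248). For the dim second probe of Fosl2 it was 0.834, with WT array 3 at -0.42 and the others between -0.73 and -0.68. Jund had a share of 0.804 for WT array 4, which is not beyond the 95% critical value of Dixon's test. Its KO array 3 was not judged this way, since only WT arrays were examined.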

How the results depend on the processing

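Of 240 member results under 24 alternatives, 209 kept their direction and side of the threshold, 17 lost a call, 1 gained one (Junb without KO array 1) and 13 reversed, all in members not called. Some alternatives are repeats, so these counts overstate the number of separate checks. Scaling average intensities between arrays left every member ratio as in the main fit. The unblocked fit on replicates 1 to 3 is the fit without WT array 4, and the series table nearly equals the scanner ratio. Reversals were Fos with slide as a block (-0.18), Fosb with median centring (0.000702), Fosl1 with other flag handlings (-0.0597 with feature flags alone, -0.0582 with no flags) and Atf3 in the sample channel (-0.0344), with those flag handlings (-0.0786 and -0.0771), with slide as a block (-0.152) and without KO array 3 and WT array 4 (-0.0353). Leaving out 1 array in turn gave -0.0665 to 0.405 for Fos, -0.0458 to 0.00494 for Fosb and -0.0541 to 0.133 for Atf3. The cause was not tested.

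Genes called numbered 1905, and 478 with slide as a block, 1069 with the replicate block over replicates 1 to 3, 1266 on the same 6 arrays without it, 1103 without KO array 3 and WT array 4, and 1252 to 1888 with 1 array left out. Without KO array 2 the count was 1252 and without WT array 4 it was 1266. With slide as a random block 2122 genes were called, 3 members among them. The 3 members called became 0 with slide as a block (none higher and 3 lower at an unadjusted p under 0.05), 1 (Fosl2) with the replicate block and 2 to 4 with 1 array left out. In the other lists together 28 of 114 genes were called, 10 with slide as a block and 21 to 27 with 1 array left out. The share called over all tested genes was 7.52%, and 1.89% with slide as a block. Median centring called 1614 genes, 55.5% of them higher, where loess gave 43.6%. Same-numbered KO and WT arrays deviated together at r = -0.03, 0.24 and 0.09, and arrays of unlike number at -0.26 to 0.12. With so few arrays these values cannot decide whether equal numbers mark samples handled together. Leaving out both doubted arrays and the 6-array fit without a block were chosen after seeing the data.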

Other observations

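Heat shock genes, which rise in cells under stress, were read as a sign of handling: of 8 tested none was called in limma in either direction (2 higher and 1 lower at an unadjusted p under 0.05), and their median difference was 0.02. Mast cell and basophil markers had medians of -0.05 to 0.11 in KO arrays and 0.06 to 0.23 in WT arrays, with 2 of 5 tested called lower (Cpa3 and Hdc), and 0 or 1 when any 1 array was left out. The share of all tested genes called lower was 4.24%. Macrophage and dendritic cell markers had medians of -0.03 to 0.20 in KO and -0.58 to 0.08 in WT, and none of 7 tested was called in limma (1 higher at an unadjusted p under 0.05, and 1 called without WT array 1).

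KO array 3 and WT array 4, the lowest arrays for Jund, were together the 2 lowest of 7 arrays in 1396 of 25258 genes (5.53%), beside 21 possible pairs. Batf3 and Atf3 lie near each other on chromosome 1, with Fam71a as the only protein-coding gene among 4 genes between them in RefSeq, and neither was called.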
